A study of Rattus norvegicus with 12 samples.

Results

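Cardiac progenitor cells on laminin were set against the same cells on fibronectin, the direct contrast of the 2 coating proteins in a rat series on matrix-dependent cell fate whose title names YAP and Plk2. The libraries were chosen by the culture condition and replicate number in the labels: 3 on laminin and 3 on fibronectin, 6 of the 12 libraries, paired by replicate number. Cells on uncoated dishes give a reference level below, and cells in suspension take no part in the tests. All 4 groups came from 1 clone of rat cardiac progenitor cells grown in F12 medium with fetal bovine serum, leukemia inhibitory factor, basic fibroblast growth factor, erythropoietin and glutathione. The dishes were seeded sparsely, so that cells did not touch, and RNA was taken after 2 h in 0.1% serum. The laminin was a ready-made solution and the fibronectin was diluted in water. Neither coating density nor the strain, sex or age of the source animal is given in the sources used here. The protein and the way it was laid down cannot be told apart.

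Cells hold on to matrix through integrins, heterodimers of an alpha and a beta chain. The chains encoded by Itga5 and Itgb1 form the classical fibronectin receptor, and those of Itga6 or Itga7 with Itgb1 bind laminin. Bound integrins gather focal adhesions, activate small GTPases and build actin stress fibres. Spreading and actin tension in turn let YAP (Yap1) and TAZ (Wwtr1), the co-activators held back by the Hippo kinases Lats1 and Lats2, enter the nucleus and act with TEAD transcription factors on genes such as Ccn1, Ccn2, Ankrd1 and Amotl2. Plk2 is a Polo-like kinase that, unlike the mitotic kinase Plk1, is induced early after stimulation of resting cells.

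The 6 libraries held between 17310357 and 20852160 counts each, and 9893 genes passed the filter on low counts. Levels are library-scaled counts (CPM), and changes are log2 differences, laminin minus fibronectin, ± SE from edgeR's quasi-likelihood test with the replicate number as a block and Benjamini-Hochberg adjusted p-values, called below 0.05. The cardiac transcription factor gene Gata4 lay between 75.0 and 95.6 CPM in the 6 libraries and Kit between 2.49 and 3.41 CPM. The progenitor gene Isl1 and the cardiomyocyte genes Nkx2-5 and Myh7 were at 0 counts in all 6. Few other markers were tested: 1 of cardiomyocytes, 1 of endothelium, 3 of smooth muscle, 4 of fibroblasts and 2 of blood cells. None was called, against 2.03% of all genes tested, so they cannot show whether cell composition differed. Without the pair of replicate 3, 2 of the fibroblast markers were called lower. On the first principal component, with 70.0% of the variance, laminin 3 at 29.3 and fibronectin 3 at 14.7 stood apart from the other 4 libraries, between -14.6 and -9.29. Ribosomal RNA genes took 4.24%, 1.63% and 2.47% of the counts on fibronectin and 1.38%, 0.448% and 1.25% on laminin in replicates 1, 2 and 3, so the share was lower on laminin in each pair. Since these are bulk cultures, fewer cells that express a gene and less of its RNA per cell cannot be told apart in any result below.

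On laminin, 158 genes were lower (1.6% of those tested) and 43 were higher (0.435%) than on fibronectin, 201 in all (2.03%). The counts of called list members below are to be read beside these shares, and those of small lists rest on few genes. The falls ran to larger sizes than the rises: 20 genes were lower by at least 2-fold (0.202%) and 0 were higher by that much. Across the 201 genes the median size was 0.43 on the log2 scale, against a median change of 0.001 over all genes tested. All 201 had the same direction in the 3 pairs. The calls come from a test of these same pairs, so this direction and the separation given next are no separate support. In 96 of the 158 lower genes the 3 laminin values lay under the 3 fibronectin values, which was so for 3.7% of all genes tested, and in 25 of the 43 higher genes they lay above them, which was so for 2.32%. Without the ribosomal RNA genes, a setting chosen after seeing their shares, 161 genes were lower and 31 higher. The 20 genes at least 2-fold apart became 18, since Rn45s and Rn28s are among the 20.

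**Figure D1:**
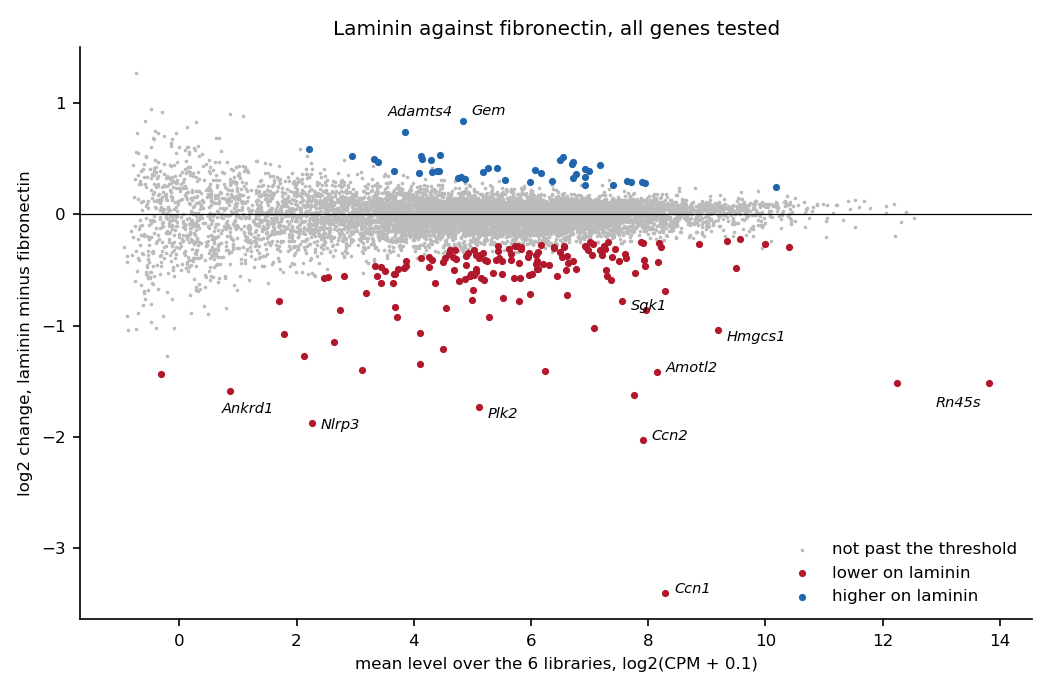
Change of each tested gene on laminin against fibronectin (vertical axis, log2 scale) by its mean level over the 6 libraries (horizontal axis, log2 of CPM + 0.1). Red points are the 158 genes lower on laminin and blue points the 43 higher, and the red points reach -3.40 (Ccn1) whereas the blue points reach 0.84 (Gem).

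Most of these calls needed the block. Without it 9 genes passed (0.091%), all lower on laminin and all among the 158: Plk2, Amotl2, Nuak2, Gadd45b, Sgk1, Ajuba, Nlrp3, Ccn1 and Hbegf. The biological coefficient of variation was 0.0553 with the block and 0.155 without it. Leaving out the pair of replicate 2 left 95 genes (0.96%), 85 lower and 10 higher. Leaving out the pair of replicate 3, the libraries that stood apart, gave 646 (6.51%), of which 514 were lower and 132 higher. Without the pair of replicate 1 the count was 252 (2.54%). A blocked fit of all 12 libraries called 41 genes, and in it 0 members were called in the lists of ERK feedback genes, EGF receptor family and ligands, p53 targets, and TGF-beta and BMP targets described below. In the 3 fits that each left out a pair, 87 of the 201 genes were called every time.

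Genes listed as YAP and TAZ targets were among the largest falls. The list was chosen with earlier results of these data known, so its share of the falls is no separate support, and YAP activity was not measured. Of 18 such targets tested, 11 were lower on laminin and 0 were higher, with a median change of -0.50 over the 18. Without the block 5 of them passed, and with all 12 libraries in a blocked fit 9. Without the pair of replicate 3, 13 were lower and F3 was called higher, at 0.22 (edgeR, adjusted p = 0.00457). Ccn1 (Entrez 83476), the secreted matricellular protein CYR61, was measured at 691, 463 and 559 CPM on fibronectin in replicates 1, 2 and 3 and at 75.9, 31.4 and 60.6 CPM on laminin. Each laminin value was thus well under each fibronectin value, and Ccn1 fell by 3.40 ± 0.12, to 9.47% of the fibronectin level (edgeR, adjusted p = 5.74e-08). Ccn2 (64032), the related connective tissue growth factor, stood at 485, 289 and 383 CPM on fibronectin and 117, 72.2 and 91.8 CPM on laminin. The groups again did not overlap, and Ccn2 fell by 2.03 ± 0.05 (edgeR, adjusted p = 5.81e-09), although it did not pass without the block (edgeR, adjusted p = 0.0622).

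The proximal promoters of some of the most lowered targets are shown. These targets are genes that YAP and TAZ are known to reach through TEAD factors. Each is the window of 250 bases before the transcription start in RefSeq for rat build GRCr8, 5′ to 3′ on the strand of the gene, and capitals mark each copy of the TEAD core GGAATG on either strand (CATTCC when read on the other). Plk2 is added as the other gene in the study's title and Epha2 as the remaining gene lower by at least 2-fold that holds a copy. Ankrd1 had no window. Gadd45b, which fell by 1.21, was not among the genes with a copy and is not shown. The targets shown thus all hold a copy and do not stand for all lowered targets.
Ccn1, chr2:237225690-237225939, minus strand: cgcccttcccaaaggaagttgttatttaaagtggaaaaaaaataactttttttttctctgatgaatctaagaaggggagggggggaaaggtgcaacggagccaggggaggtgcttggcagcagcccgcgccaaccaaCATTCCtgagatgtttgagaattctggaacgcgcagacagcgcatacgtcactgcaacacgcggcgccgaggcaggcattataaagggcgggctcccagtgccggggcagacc
Ccn2, chr1:22624615-22624864, minus strand: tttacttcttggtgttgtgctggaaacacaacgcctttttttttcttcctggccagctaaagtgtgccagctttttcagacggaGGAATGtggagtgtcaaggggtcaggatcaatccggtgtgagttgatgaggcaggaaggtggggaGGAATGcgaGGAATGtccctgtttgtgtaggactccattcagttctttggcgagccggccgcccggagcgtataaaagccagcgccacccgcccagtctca
Amotl2, chr8:112182376-112182625, plus strand: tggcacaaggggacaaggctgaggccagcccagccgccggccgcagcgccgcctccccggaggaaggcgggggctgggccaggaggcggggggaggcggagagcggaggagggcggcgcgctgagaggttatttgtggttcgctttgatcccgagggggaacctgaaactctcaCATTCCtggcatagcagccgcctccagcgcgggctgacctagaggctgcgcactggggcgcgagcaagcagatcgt
Ajuba, chr15:32000043-32000292, minus strand: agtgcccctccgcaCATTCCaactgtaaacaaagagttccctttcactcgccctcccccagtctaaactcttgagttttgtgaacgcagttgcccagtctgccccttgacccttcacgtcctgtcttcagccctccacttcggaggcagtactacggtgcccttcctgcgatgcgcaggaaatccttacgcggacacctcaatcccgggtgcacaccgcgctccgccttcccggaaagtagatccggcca
Nuak2, chr13:46305756-46306005, plus strand: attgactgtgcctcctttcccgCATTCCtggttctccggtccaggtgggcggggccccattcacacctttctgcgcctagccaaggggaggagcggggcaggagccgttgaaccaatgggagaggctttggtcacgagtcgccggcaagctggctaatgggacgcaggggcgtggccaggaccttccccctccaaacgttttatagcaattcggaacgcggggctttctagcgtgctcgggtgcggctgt
Epha2, chr5:158888379-158888628, plus strand: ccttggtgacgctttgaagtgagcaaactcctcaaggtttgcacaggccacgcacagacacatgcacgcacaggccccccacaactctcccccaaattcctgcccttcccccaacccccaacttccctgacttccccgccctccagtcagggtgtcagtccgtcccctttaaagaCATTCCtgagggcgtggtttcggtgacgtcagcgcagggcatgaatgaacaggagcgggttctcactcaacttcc
Plk2, chr2:43702286-43702535, plus strand: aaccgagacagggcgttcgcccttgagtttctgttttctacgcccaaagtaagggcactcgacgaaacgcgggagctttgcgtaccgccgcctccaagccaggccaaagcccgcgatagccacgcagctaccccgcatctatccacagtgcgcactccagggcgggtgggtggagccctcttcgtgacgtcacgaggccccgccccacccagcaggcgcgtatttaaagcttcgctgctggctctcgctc

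Ccn2 holds 3 copies, which begin 166, 101 and 92 bases before the start, and Ccn1 holds 1 at 113 bases. The copies of Amotl2 and Epha2 lie at 76 and 75 bases, those of Ajuba and Nuak2 at 236 and 228 bases, and the window of Plk2 holds 0. Among the 8 YAP and TAZ targets that were lower and had a window, 6 held a copy: Ajuba, Amotl2, Ccn1, Ccn2, Nuak2 and Ptpn14. Among all 13 tested targets with a window, called or not, it was also 6 (46.2%). The list holds genes known to be reached through TEAD factors, so these copies are no separate support. The share of windows with a copy was 9.96% of 8526 over all genes tested, 16.8% of 137 for the genes lower on laminin and 7.89% of 38 for the higher genes. Of the 15 windows of genes lower by at least 2-fold, 6 held a copy. For the AP-1 motif TGANTCA the shares were 4.48% over all genes tested, 5.84% for the lower and 5.26% for the higher genes. The CArG box bound by SRF, described with the cytoskeletal genes below, was held by 1.14% of all tested windows, 5.11% of those of lower genes and 2.63% of those of higher genes, and by 0 of the 15 windows of genes lower by at least 2-fold. No motif of the 3 contains another, and a match is a run of letters and not a measured binding site.

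Amotl2 (65157), a scaffold that binds YAP and is itself a YAP target, gave 419, 386 and 441 CPM on fibronectin and 156, 132 and 176 CPM on laminin, without overlap. It fell by 1.42 ± 0.06 (edgeR, adjusted p = 3.01e-07). Ajuba (85265), a LIM protein that restrains Lats kinases, gave 116, 103 and 112 CPM against 45.3, 33.7 and 45.1 CPM and fell by 1.41 ± 0.07. Nuak2 (289419), a kinase of the AMPK-related family, gave 12.7, 11.1 and 13.8 CPM against 4.45, 4.64 and 4.94 CPM and fell by 1.40 ± 0.11. In these genes the fall was of one size, to between 37.4% and 37.8% of the level on fibronectin.

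Ankrd1 (27064), a nuclear ankyrin repeat protein of muscle, was low in both groups, at 3.0, 2.79 and 2.00 CPM on fibronectin and 1.04, 0.909 and 0.617 CPM on laminin. Those values rest on 51, 53 and 38 counts against 18, 19 and 11, and Ankrd1 fell by 1.59 ± 0.21 (edgeR, adjusted p = 0.00197). Gadd45b, a stress-response gene, fell by 1.21 ± 0.08. Smaller falls were those of Dlc1, a GTPase-activating protein, by 0.56 ± 0.06, of the growth factor gene Tgfb2 by 0.50 ± 0.07, and of the feedback genes Lats2 by 0.49 ± 0.06 and Ptpn14 by 0.36 ± 0.08. The calls of Ptpn14 and Tgfb2 ended without the pair of replicate 2, and that of Ptpn14 also without the pair of replicate 1 or with library size as the only scaling. Of the 7 targets not called, Crim1 at -0.22 ± 0.06 came nearest (edgeR, adjusted p = 0.0768), followed by Axl, Nt5e, Asap1 and Myof between -0.13 and -0.05, Fjx1 at 0.03 ± 0.06 and F3 at 0.08 ± 0.09.

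**Figure D2:**
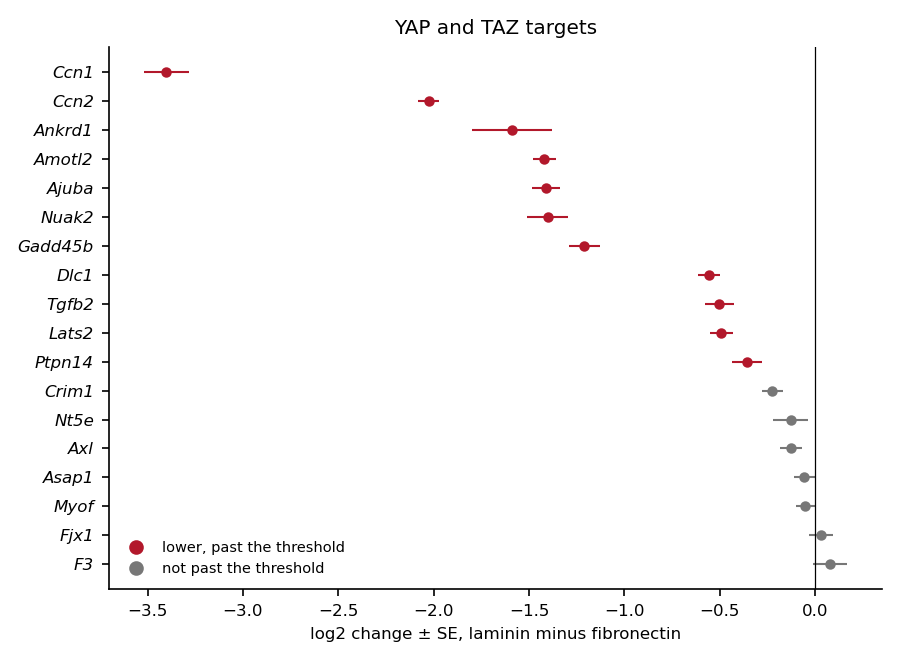
Change on laminin against fibronectin (log2 scale, horizontal axis, ± SE) of each tested YAP and TAZ target. Red points passed the threshold and grey points did not: 11 of 18 are red, all left of 0, with Ccn1 at -3.40 the farthest.

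The RNAs of the co-activators themselves were at near-equal levels on both proteins. Yap1 (363014) gave 59.6, 58.1 and 57.1 CPM on fibronectin and 53.6, 58.2 and 57.5 CPM on laminin, ranges that overlap. Its change of -0.04 ± 0.06 has a 95% interval from -0.18 to 0.11. Wwtr1 gave -0.01 ± 0.06 with an interval from -0.13 to 0.12, so a change as large as those of the called targets lies outside both intervals. The Hippo kinase gene Lats2 was counted with the YAP and TAZ targets above, where it was called lower, at -0.49 ± 0.06. Of the 17 other Hippo pathway core genes tested, 0 were called, against 2.03% of all genes tested, with a median change of -0.09. The lowest p among them belonged to Frmd6, an upstream activator, at -0.24 ± 0.06 (edgeR, adjusted p = 0.0551), and to Lats1 at -0.29 ± 0.07 (edgeR, adjusted p = 0.0582). Without the pair of replicate 3, 5 Hippo core genes were called lower, and 2 without the pair of replicate 1.

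Plk2 (83722) was the 1 called member among the 4 Polo-like kinases tested. It gave 53.6, 57.1 and 48.9 CPM on fibronectin and 17.9, 15.5 and 14.7 CPM on laminin. The 3 laminin values lay close together and far under those of fibronectin, at 30.2% of the level, and Plk2 fell by 1.73 ± 0.08 (edgeR, adjusted p = 5.33e-07; 0.0194 without the block). Plk1 gave 183, 178 and 200.3 CPM against 169.5, 175 and 203 CPM, overlapping ranges, and a change of -0.03 ± 0.05 with an interval from -0.15 to 0.09. Plk3, a stress-activated relative, changed by 0.07 ± 0.10 with an interval from -0.14 to 0.28. For Plk4, the kinase of centriole duplication, the value was -0.19 ± 0.08 with an interval from -0.37 to -0.01 and it was not called (edgeR, adjusted p = 0.362).

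**Figure D3:**
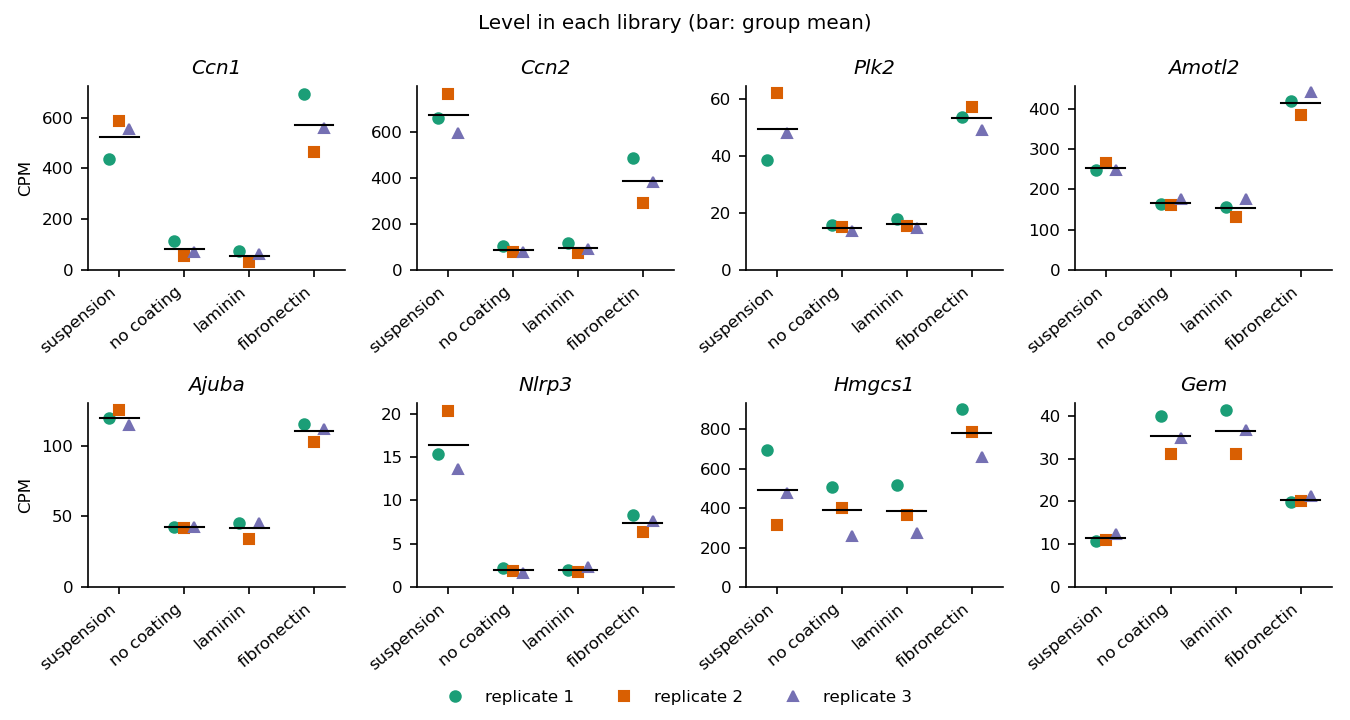
Level in each library (vertical axis, CPM, from 0) of 8 genes in the 4 groups. Points are libraries, marked by replicate number, and bars are group means. For Ccn1, Ccn2, Plk2, Amotl2, Ajuba, Nlrp3 and Hmgcs1 the laminin points lie under all fibronectin points, and for Gem above them, while the laminin and no coating ranges overlap in all 8. Suspension was not tested. Its means beside those on fibronectin were 525 and 571 CPM for Ccn1, 672 and 386 for Ccn2 and 49.4 and 53.2 for Plk2. For Ajuba they were 120 and 110 CPM and for Nlrp3 16.4 and 7.41. The suspension means were the lower for Amotl2 (253 and 415 CPM), Hmgcs1 (494.5 and 782) and Gem (11.3 and 20.4).

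Of 15 targets of SRF, the serum response factor, and of its actin-regulated partners MRTF, 4 were lower on laminin and 0 higher, with a median of -0.12 and 0 calls without the block. Srf itself gave 125, 109 and 129 CPM on fibronectin and 84.6, 82.6 and 102 CPM on laminin, without overlap, and fell by 0.42 ± 0.06 (edgeR, adjusted p = 0.00459). Fhl2, a LIM-only co-factor, fell by 0.51 ± 0.06, and the actin-binding genes Lima1 and Vcl fell by 0.26 ± 0.05 and 0.23 ± 0.05. The calls of Lima1 and Vcl ended when the pair of replicate 1 or of replicate 2 was left out and with library size as the only scaling. Actb, Actg1, Flna and Myh9, which encode actins, filamin A and non-muscle myosin, lay between -0.12 and -0.03 and were not called. CArG boxes were found in the windows of Fhl2 and Srf, and also of Klf6, Lima1, Rnd3 and Ston1, all lower on laminin.

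Among 21 genes of small GTPases of the cytoskeleton and their regulators, 3 were lower and 1 was higher on laminin, and 0 passed without the block. All 3 lower genes encode GTPases. Rnd1 and Rnd3, which oppose RhoA, fell by 1.15 ± 0.13 and 0.78 ± 0.09, and Rhob, a short-lived early-response GTPase, fell by 0.73 ± 0.06 from 126, 112 and 131 CPM to 72.7, 67.0 and 81.8 CPM. The Rnd3 ranges overlapped, since replicate 3 was low on both proteins, at 45.7 CPM on fibronectin against 53.8 and 50.1 CPM in laminin replicates 1 and 2. Arhgap22, a GTPase-activating protein, rose by 0.26 ± 0.05, a call that ended without the pair of replicate 2. Of 24 focal adhesion components, Vcl and Bcar1, which encodes a docking scaffold, fell by 0.23 and 0.27, and 0 were called without the pair of replicate 1 or of replicate 2.

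Early-response genes were split. Of 22 immediate early genes, 3 were lower and 1 was higher on laminin, with a median of -0.08 and 0 calls without the block. Myc (24577) gave 200.7, 192 and 202 CPM on fibronectin and 127, 124 and 143 CPM on laminin. The groups were well apart, and Myc fell by 0.59 ± 0.06 (edgeR, adjusted p = 2.79e-04). Klf2, a flow- and RhoA-sensitive transcription factor, fell by 0.92 ± 0.12 and the related Klf6 by 0.43 ± 0.06. Ier5 was the 1 rise, by 0.33 ± 0.06, which was not called without the pair of replicate 2. The classical serum-response genes Fos, Fosb, Egr1, Jun and Junb lay between -0.15 and 0.19 and were not called.

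Signalling downstream of receptor tyrosine kinases gave a few calls. Hbegf (25433), the membrane-bound EGF receptor ligand, stood at 26.2, 20.6 and 23.3 CPM on fibronectin and at 10.6, 11.7 and 10.7 CPM on laminin, without overlap. It fell by 1.06 ± 0.10 (edgeR, adjusted p = 1.64e-04), and a second ligand, Ereg, fell by 0.62 ± 0.10, the 2 calls among 8 genes of the EGF receptor family and its ligands. Egfr at -0.13 ± 0.07 and Tgfa at -0.08 ± 0.05 were not called. Of 16 ERK feedback genes, the phosphatase genes Dusp1 and Dusp6 fell by 0.41 ± 0.08 and 0.25 ± 0.05, and neither was called without the pair of replicate 2 or without the block. Among 11 Eph receptors and ephrins, which signal between touching cells, Epha2 fell by 1.02 ± 0.07 and Efnb2 by 0.83 ± 0.10, whereas Efna1, which encodes a ligand of Epha2, rose by 0.44 ± 0.06. Epha2 gave 190.1, 167 and 186 CPM on fibronectin and 89.9, 74.7 and 103 CPM on laminin, and Efna1 gave 126, 111 and 136 CPM against 162, 156 and 183 CPM, so the receptor and the ligand were each without overlap and in opposite directions.

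Of 17 cholesterol synthesis genes tested, 12 were lower on laminin and 0 were higher, with a median of -0.38. Hmgcs1 (29637), a synthase early in the pathway, gave 902, 786 and 659 CPM on fibronectin and 519, 367 and 276 CPM on laminin. The laminin values lay under all fibronectin values and, within each protein, replicate 3 was lowest. Hmgcs1 fell by 1.04 ± 0.08 (edgeR, adjusted p = 3.05e-05). Insig1, a sterol-regulated inhibitor of SREBP processing, gave 357, 282 and 320.3 CPM against 223, 135 and 174 CPM and fell by 0.86 ± 0.07.

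Among the other falls of this list were those of Idi1, Msmo1, Dhcr7, Fdft1, Sqle, Mvd, Nsdhl and Sc5d, which ran from -0.50 ± 0.08 for the isomerase gene Idi1 to -0.26 ± 0.06 for Sc5d. Cyp51 at -0.19, Lss at -0.13, Fdps at -0.09 and the regulator Srebf2 at -0.07 were among those not called. The laminin values lay under all fibronectin values in 4 of the 17 genes, against 3.7% of all genes tested. The replicates differed widely in level: Idi1 gave 202, 209 and 127 CPM on fibronectin against 162, 158 and 71.0 CPM on laminin. Without the block 0 of these genes passed, and without the pair of replicate 2, 7 did. With all 12 libraries and the block, 4 were called. None of the windows of 8 lower genes held the TEAD core, against 9.96% of all tested windows, and 8 windows are too few to tell these apart. The AP-1 motif was held by 2 of the 8, those of Idi1 and Msmo1, against 4.48% of all tested windows.

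Single genes of other pathways were also lower. Nlrp3 (287362), the sensor of an inflammasome, gave 8.30, 6.31 and 7.62 CPM on fibronectin and 1.97, 1.68 and 2.36 CPM on laminin. The groups were far apart at a low level, and Nlrp3 fell by 1.87 ± 0.15 (edgeR, adjusted p = 4.31e-05). In the same list of 15 innate sensors and NF-kB regulators, Nfkbia, which encodes the inhibitor IkB-alpha, rose by 0.36 ± 0.06 and the sensor gene Nod1 rose by 0.28 ± 0.06. Both rises ended without the pair of replicate 2. Sgk1 (29517), a serum- and glucocorticoid-induced kinase, gave 234, 234 and 249 CPM against 142, 132 and 140.0 CPM and fell by 0.78 ± 0.05. Tsc22d3 fell by 0.44 ± 0.06, which made 2 of 8 genes of that list. Of 13 p53 targets, Pmaip1, Btg2 and Gadd45a fell by 0.57, 0.46 and 0.45, and Cdkn1a, the cell cycle inhibitor p21, was higher by 0.38 ± 0.08. The calls of Pmaip1 and Cdkn1a ended without the pair of replicate 2, and that of Pmaip1 also without that of replicate 1. Vof16, for which no role is given here, fell by 1.34 ± 0.10.

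The rises were smaller and more scattered over pathways. Gem (297902), a small GTPase that inhibits calcium channels, gave 19.8, 20.1 and 21.3 CPM on fibronectin and 41.4, 31.1 and 36.8 CPM on laminin. Every laminin value lay above every fibronectin value, and Gem rose by 0.84 ± 0.09 (edgeR, adjusted p = 5.03e-04; 0.131 without the block). Adamts4 (66015), an aggrecan-cleaving protease, gave 12, 8.58 and 12 CPM against 19.8, 13.9 and 20.2 CPM and rose by 0.74 ± 0.08, the 1 call among 17 matrix proteases and inhibitors. Bmf, a pro-apoptotic BH3-only gene, rose by 0.53 ± 0.07 from 17.5, 19.6 and 16.1 CPM to 25.5, 28.1 and 23.1 CPM, without overlap.

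Id1, Id3 and Id4, which encode dominant-negative partners of basic helix-loop-helix factors and respond to BMP, were the 3 calls among 12 TGF-beta and BMP targets. Id1 gave 64.0, 83.1 and 82.5 CPM on fibronectin and 78.3, 134 and 118 CPM on laminin. The ranges overlapped, because replicate 1 was low on both proteins, and within pairs Id1 rose by 0.52 ± 0.07 (edgeR, adjusted p = 0.00349). Id4 rose by 0.41 ± 0.07 from 36.6, 36.6 and 37.6 CPM to 48.5, 51.3 and 46.8 CPM, without overlap, and Id3 by 0.29 ± 0.06. The calls of Id3 and Id4 ended without the pair of replicate 2, and that of Id3 also with DESeq2's size factors in edgeR or without the ribosomal RNA genes. Atoh8, a helix-loop-helix transcription factor, rose by 0.49 ± 0.06. Their relative Id2 stood at 0.24 ± 0.07 and the pathway inhibitor Smad6 at -0.37 ± 0.11, and neither was called. Over the 12 genes 6 changes were above 0 and 6 below it.

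Of 12 Wnt pathway genes, Axin2 and Fzd7 were higher and Fzd1 was lower. Axin2, a feedback target of beta-catenin, gave 7.36, 5.53 and 5.94 CPM against 11.6, 7.71 and 7.74 CPM and rose by 0.52 ± 0.11, and the receptor genes Fzd7 and Fzd1 changed by 0.37 ± 0.06 and -0.38 ± 0.07. The groups of Axin2 did not overlap, but its call ended without the pair of replicate 1, and none of the 3 was called without the pair of replicate 2. Among the other named rises were Chst1, a sulfotransferase gene, at 0.58 ± 0.13, the lipid-sensing receptor gene Gpr132 at 0.52 ± 0.09, the transcription factor gene Lhx6 at 0.49 ± 0.08, the aryl hydrocarbon receptor target Cyp1a1 at 0.49 ± 0.11 and Krt15, a keratin gene, at 0.49 ± 0.09. The mTOR inhibitor gene Ddit4 rose by 0.47 ± 0.10, the semaphorin gene Sema7a by 0.47 ± 0.06 and the heme oxygenase gene Hmox1 by 0.45 ± 0.06. The calls of Chst1, Gpr132, Lhx6, Cyp1a1, Krt15 and Ddit4 ended without the pair of replicate 2, and those of Chst1, Cyp1a1 and Ddit4 also without that of replicate 1. With DESeq2's size factors, Chst1, Axin2, Cyp1a1 and Ddit4 were not called, and Chst1 was not with library size alone. In DESeq2's own test these 4, Gpr132 and Lhx6 were not called, and Hmox1 was not in the fit of 9 attached libraries.

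**Figure D4:**
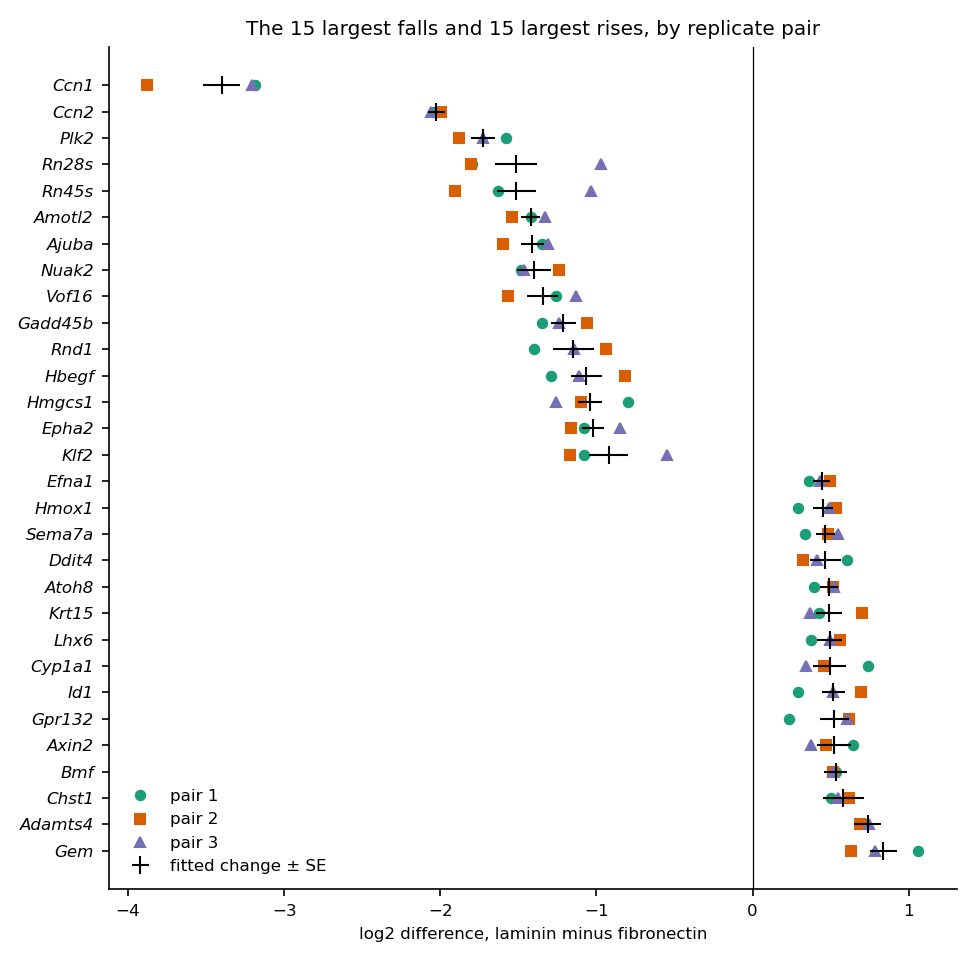
Log2 difference in each replicate pair (colored symbols) and fitted change ± SE (black) on laminin against fibronectin for the 15 largest falls and 15 largest rises named by the rule. All symbols of the falls lie left of 0 and all symbols of the rises lie right of 0. The naming rule took only genes with the same direction in all pairs, so this is no separate support.

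No receptor gene tested for the 2 proteins passed the threshold. Of 5 fibronectin-binding, 4 laminin-binding and 4 other integrin subunit genes tested, 0 were called. The share over all genes tested was 2.03%, so lists of this size without a call are not unusual. Itga5 gave 376, 350.2 and 379 CPM on fibronectin and 353, 371 and 433 CPM on laminin, a change of 0.07 ± 0.06 with a 95% interval from -0.06 to 0.21. Itgb1, the beta chain shared by both kinds of receptor, gave -0.05 ± 0.06 with an interval from -0.19 to 0.09. For the laminin-binding chains Itga6 and Itga7 the changes were -0.02 ± 0.06 and 0.01 ± 0.07, with intervals from -0.15 to 0.10 and from -0.15 to 0.17. Itgb5, listed here with the fibronectin-binding chains, gave 1284, 1191 and 1263 CPM against 1312, 1310 and 1415 CPM, without overlap, at 0.12 ± 0.05 and not called (edgeR, adjusted p = 0.351). Itgav, Itgb3, Itga2 and Itga3 were not analysed here. The subunits with the widest intervals were expressed at low levels, such as Itga10 at 0.631 to 2.02 CPM. All 9 non-integrin matrix receptors and all 20 matrix protein genes tested were also without a call, although without the pair of replicate 3, 9 matrix protein genes were called lower.

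**Figure D5:**
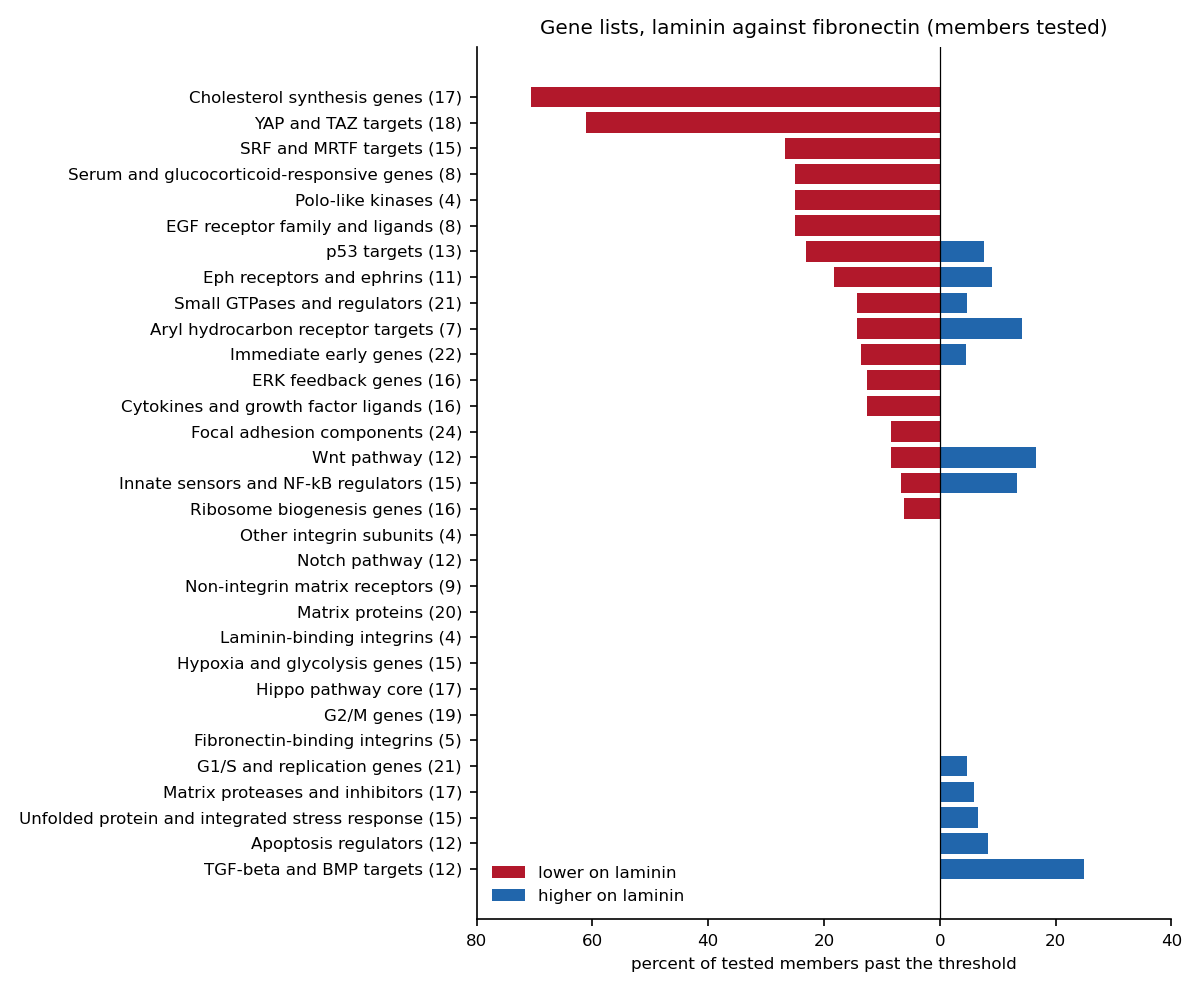
Percent of the tested members of each gene list past the threshold, lower on laminin (red, to the left) or higher (blue, to the right); the number of members tested is in parentheses. The bars of cholesterol synthesis genes (12 of 17) and YAP and TAZ targets (11 of 18) are the longest in this fit, and lists without a bar, such as the integrins, had 0 calls. The lists were chosen with earlier results of these data known.

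The uncoated dishes give a level against which both proteins can be read, in a blocked fit of the 9 attached libraries over 9975 genes. Both contrasts share the uncoated libraries, so they are given side by side and not compared. Against no coating, fibronectin gave 141 higher genes (1.41%) and 50 lower genes (0.501%), 191 in all (1.91%), whereas laminin gave 0 by edgeR, with 735 at an unadjusted p under 0.05 and 17 by DESeq2. The count for fibronectin was 17 without the block, 42 without the replicate 2 libraries and 979 without those of replicate 1. That for laminin was 140 without the replicate 3 libraries and 16 without those of replicate 1.

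Ccn1 stood at 114, 56.5 and 72.1 CPM on uncoated dishes, and was higher by 2.86 ± 0.13 on fibronectin and at -0.55 ± 0.13 on laminin (edgeR, adjusted p = 0.395). For Plk2, at 15.7, 15.2 and 13.6 CPM on uncoated dishes, the values were 1.85 ± 0.07 for fibronectin, which was called, and 0.11 ± 0.08 for laminin, which was not. Hmgcs1 was higher by 1.05 ± 0.09 on fibronectin and stood at -0.01 ± 0.09 on laminin. Nlrp3 was higher by 1.95 ± 0.14 on fibronectin and stood at 0.06 ± 0.19 on laminin. Gem was lower by 0.78 ± 0.09 on fibronectin and stood at 0.04 ± 0.08 on laminin. Epha2 was higher by 0.74 ± 0.07 on fibronectin and stood at -0.29 ± 0.07 on laminin (edgeR, adjusted p = 0.385).

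Counts of ribosomal RNA genes were lower on laminin. Rn45s, the precursor transcript, gave 33070, 11950 and 18460 CPM on fibronectin, 10700, 3183 and 8998 CPM on laminin and 23410, 13850 and 18060 CPM on uncoated dishes. The laminin libraries held the low values, and against fibronectin Rn45s fell by 1.51 ± 0.12 (edgeR, adjusted p = 6.30e-05; 1 without the block). Against no coating, Rn45s changed by 0.09 ± 0.18 on fibronectin and -1.41 ± 0.19 on laminin (edgeR, adjusted p = 0.0673 for laminin). Rn28s fell by 1.52 ± 0.13 against fibronectin, a call that ended with robust dispersion estimates, and Rn5-8s fell by 0.75 ± 0.09. These genes exist in many near-identical copies, so their counts are uncertain. Whether the lower counts come from the cells or from the making of the libraries was not tested. With the ribosomal RNA genes left out of counts and library sizes, the 11 YAP and TAZ targets, Plk2, Hmgcs1, Insig1 and Msmo1 were each still called.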

How the data were processed

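Each library has 1 deposited file, in which the authors give unnormalized read counts for every Entrez gene identifier. Libraries were made with the TruSeq Stranded Total RNA kit (per the labels' protocols) and rn4 is the genome build named, per the submitters' processing notes. Aligner, counter, annotation and strand setting: none is given in the sources used here. Reads of antisense neighbours and near-identical copies therefore cannot be told apart. A RefSeq table of assembly GRCr8, used for names, held 16761 of the 16924 identifiers, and the other 163 took 0.301% to 0.357% of a library's counts.

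The members and gene lists were chosen with earlier results of these data known. Genes kept by filterByExpr were scaled by TMM and tested with edgeR 4.0.16 in R 4.3.3 (glmQLFit, glmQLFTest) on the 6 libraries, with the replicate number as a block and 2 residual degrees of freedom. The labels give same-numbered libraries 1 batch, and their deviations from group means correlated at 0.668, 0.854 and 0.872 across genes. The block takes out differences in level between batches. The cells are 1 clone, so p-values measure how the laminin minus fibronectin difference varied from batch to batch. The SE is the size of the log2 change divided by the square root of F. Printed CPM use TMM factors over all 12 libraries. DESeq2 1.42.0 and limma 3.58.1 served as alternatives, as did the other scalings, filters and sets of libraries in the closing section.

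The naming rule took, among called genes with a mean log2 CPM of 2 or more and 1 direction in all pairs, the 15 that fell most and the 15 that rose most. Symbols starting with LOC, RGD, MGC, Mir or Snor were passed over. Yap1, Wwtr1, the Polo-like kinases, YAP and TAZ targets, integrins and, from each list described, the 4 with the lowest p were added. Other genes are named as list members, and a few members are not reported here by name. On simulated counts for this comparison over 9893 genes, 90 of 100 genes changed by 0.5 (log2) and all 100 changed by 1 were recovered, with 8 false among 198 calls. The changed genes were drawn from those with higher counts, and the counts followed the spread that the blocked fit had estimated. Recovery at low counts, such as those of Ankrd1, or under another spread was thus not tested. Promoter windows, the 250 bases before a start in the RefSeq promoter table, were searched on both strands.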

Additional observations from a re-analysis of the deposited data

How the results depend on the processing

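Counts over 2 pairs rest on 1 residual degree of freedom. The 201 genes became 9 with no replicate block (0 higher, 9 lower, 8 at least 2-fold apart against 20), 41 with all 12 libraries and the block (4, 37 and 11) and 15 with those and no block (1, 14 and 9). Library size alone gave 104 lower genes, and 26 (edgeR with DESeq2's size factors) and 24 (DESeq2) were higher. The share of calls that were lower was 78.6%, 71.2% with library size and 85.2% with those size factors. Leaving out each pair gave 95 to 646 genes (10 to 132 higher, 85 to 514 lower, 16 to 28 at least 2-fold apart). Fibronectin against no coating, 191 genes, gave 17 without the block and 42 to 979 without a replicate. Laminin against no coating gave 2 with library size alone and 1 to 140 without a replicate. The cause was not tested. The 110 named genes tested include many, such as Yap1 and Itga5, that had no call to lose. Of those with a call, 57 lost it without the block, and only the 9 genes that passed there kept it. The losses were 41 with all 12 libraries and the block and 55 with those and no block. They were 24 without the pair of replicate 2 and 9 without that of replicate 1.

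Signs turned only for genes not called in the 6-library blocked fit. Leaving out each pair gave ranges of -0.0300 to 0.0749 for Fjx1, -0.0383 to 0.2228 for F3, -0.0711 to 0.0135 for Yap1, -0.0167 to 0.0073 for Wwtr1, -0.0652 to 0.0052 for Plk1, -0.0019 to 0.1451 for Itga5, -0.1386 to 0.0373 for Itgb1, -0.0763 to 0.0095 for Itga6, -0.0922 to 0.0641 for Itga7, -1e-04 to 0.1585 for Itga11 and -0.1877 to 0.4928 for Itgb7. With library size alone Wwtr1 was at 0.0158 and Itga6 at 0.0029. Itga7 was at -0.0015 with the 9 attached libraries, -1e-04 with all 12 blocked, -0.0031 with DESeq2's size factors, -0.0027 without a filter, -0.0011 with at least 1 CPM in 3 libraries, -0.0038 in DESeq2 and -0.0060 without ribosomal RNA genes.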

Other observations

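A few genes outside the naming rule were picked after their values were seen. Gata3, a transcription factor gene, gave 6.06, 6.10 and 6.04 CPM on fibronectin and 2.14, 2.01 and 3.37 CPM on laminin and fell by 1.28 ± 0.17 (edgeR, adjusted p = 0.0023; 0.213 without the block). Pim3, a serine/threonine kinase gene, gave 49.5, 46.6 and 56.5 CPM against 24.8, 24.5 and 30.8 CPM and fell by 0.92 ± 0.07. Metrnl, which encodes a secreted protein, gave 32.3, 25.4 and 32.2 CPM against 15.5, 15.9 and 18.1 CPM and fell by 0.84 ± 0.09. The laminin values of each lay under all fibronectin values. Neither Pim3 nor Metrnl passed without the block (edgeR, adjusted p = 0.117 and 0.14).

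Cardiac genes among the calls were Wt1, an epicardial transcription factor gene, and Nppb, which encodes the B-type natriuretic peptide. Wt1 gave 1.41, 1.11 and 0.578 CPM on fibronectin and 0.521, 0.383 and 0.225 CPM on laminin and fell by 1.44 ± 0.31 (edgeR, adjusted p = 0.0418), a call that ended without the pair of replicate 1 or of replicate 2. Nppb gave 15.2, 16.8 and 17.8 CPM against 8.91, 13.0 and 13.6 CPM and fell by 0.49 ± 0.10 (edgeR, adjusted p = 0.031), a call that ended without the pair of replicate 1. Neither passed without the block. Of 12 Notch pathway genes, 19 G2/M genes and 15 hypoxia and glycolysis genes tested, 0 were called, against 2.03% of all genes tested. Their medians were -0.15, -0.05 and 0.08.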
